A study of Mus musculus with 6 samples.

Results

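Macrophages of the liver were followed in whole liver RNA through 10 marker genes, Cd68, Emr1, Marco, Vsig4, Cd5l, Timd4, Csf1r, Cd163, Lyz2 and Cd14. The members were the 14 probes that the array annotation assigns to these genes, out of 55681 probes that are not controls, and the rule for them uses gene symbols and no signal. The livers came from male B6C3F1 mice aged 7 weeks. Control mice (n = 3) received corn oil by mouth, and TCE mice (n = 3) received trichloroethylene, a chlorinated solvent, given in corn oil at a daily dose of 1000 mg/kg body weight over 5 days. Total RNA of each liver was hybridized with a single dye to an array of its own, and no animals were pooled. All values are signals on the log2 scale after quantile normalization, and changes are TCE minus control, so that a change of 1 is 2-fold. The RNA was that of whole liver, so fewer macrophages and less RNA per macrophage cannot be told apart.

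Kupffer cells are the resident macrophages of the liver and lie inside the sinusoids, the capillaries lined by fenestrated endothelium. They take up bacteria, worn-out red cells and modified lipoproteins from portal blood, sense endotoxin through CD14 and TLR4, and depend for survival on the growth factor receptor that Csf1r encodes. Monocytes recruited from blood can join or replace them after injury, and such cells share Cd68, Lyz2 and Cd14 with the resident ones but carry little of Vsig4, Timd4 or Clec4f at first.

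The probes decide which transcripts these values stand for, and windows of 30 bases are shown for genes that have more than 1 probe or a close copy. Capitals mark the longest run that both windows of a pair share. The Lyz2 probe lies on chromosome 10 from 116719175 to 116719234 of mouse genome build mm9, minus strand, and its copy Lyz1 has a probe from 116724862 to 116724921. The longest run common to the 2 probes was 6 bases.
Lyz2 probe: ttgccagaactcTGAAAAggaatggaatgg
Lyz1 probe: ctaatctcacagTGAAAAagtacaaatggc
Cd68 has 2 probes on chromosome 11, minus strand, that start 1204 bases apart and share a run of 4 bases. The first, from 69477775 to 69477834, was well above background on every array, and the second, from 69478979 to 69479038, on 1.
Cd68 first probe: gcctcatctcTTCAccatgccactgactca
Cd68 second probe: atcctatacccaaTTCAgggtggaagaaag
Emr1, now named Adgre1, has 2 probes on chromosome 17, plus strand, from 57620350 to 57620409 and from 57622868 to 57622927. They share a run of 6 bases, and both were well above background on all 6 arrays.
Emr1 first probe: ctgaccttagctcccattccCAGACTtctg
Emr1 second probe: tcaagcagtaaacaCAGACTaactcttaat

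PU.1, encoded by Spi1, is the factor that macrophage genes are best known to depend on, and the letters GAGGAA are the core it binds. RefSeq promoter windows of 300 bases (build GRCm38.p6) were given for 7 of the 10 members. GAGGAA, read on both strands, was found in 4 of these 7 windows and in 28.3% of all 32851 promoter windows. TATAAA, also read on both strands, was found in 0 of the 7 and in 13.6% of all windows. The matches upstream of the start are shown with the motif in capitals, each read along its gene's strand, because these promoters belong to the markers whose levels follow. A match of letters is a description and not a binding site.
Cd68 promoter, chr11:69666378-69666407, minus strand: tttcttaccaatGAGGAAagggcttcccat
Marco promoter, chr1:120505153-120505182, minus strand: tgaagtgggtcaGAGGAAgatttcctgggg
Vsig4 promoter, chrX:96293576-96293605, minus strand: tcctagtagaatGAGGAAcagtttcaccca
Vsig4 promoter, chrX:96293474-96293503, minus strand: ggggaagtgtgtGAGGAAactaggattctg
Cd5l promoter, chr3:87357803-87357832, plus strand, motif on the other strand: cagtcacctcccTTCCTCtggccatgctga

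No macrophage marker passed the threshold for a change between TCE and control livers. Of the 14 probes, 12 probes of 9 genes exceeded background on each of the 6 arrays. They were tested with limma, which fits a linear model and shares the estimate of spread among probes, and 0 of the 12 were past the threshold of a 2-fold change at a Benjamini-Hochberg adjusted p of 0.05. Among all 22731 detected probes 1.41% were past it. At an unadjusted p under 0.05 there were 0 of the 12 and 17.9% of all detected probes. In 0 of the 12 did the 3 TCE mice all lie to one side of the 3 control mice, against 25.7% of all detected probes. The fitted change was below 0 for 10 of the 12 probes and above 0 for 2, and without normalization between arrays, where the median change of all detected genes was 0.27, it was below 0 for 3. Counted by gene, with the brightest detected probe standing for the gene, 7 members were lower and 2 higher, and their median change was -0.07, against 0.02 over all 13284 detected genes, or 0.17 against 0.27 without that normalization. For 10 of the 12 probes the 95% interval of the change lay within a 2-fold change in either direction, as it did for 77.7% of all detected probes, and the exceptions were Marco and Lyz2. Absence of a call does not show equal levels, and these intervals give the changes that 3 mice per group leave possible.

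**Figure D1:**
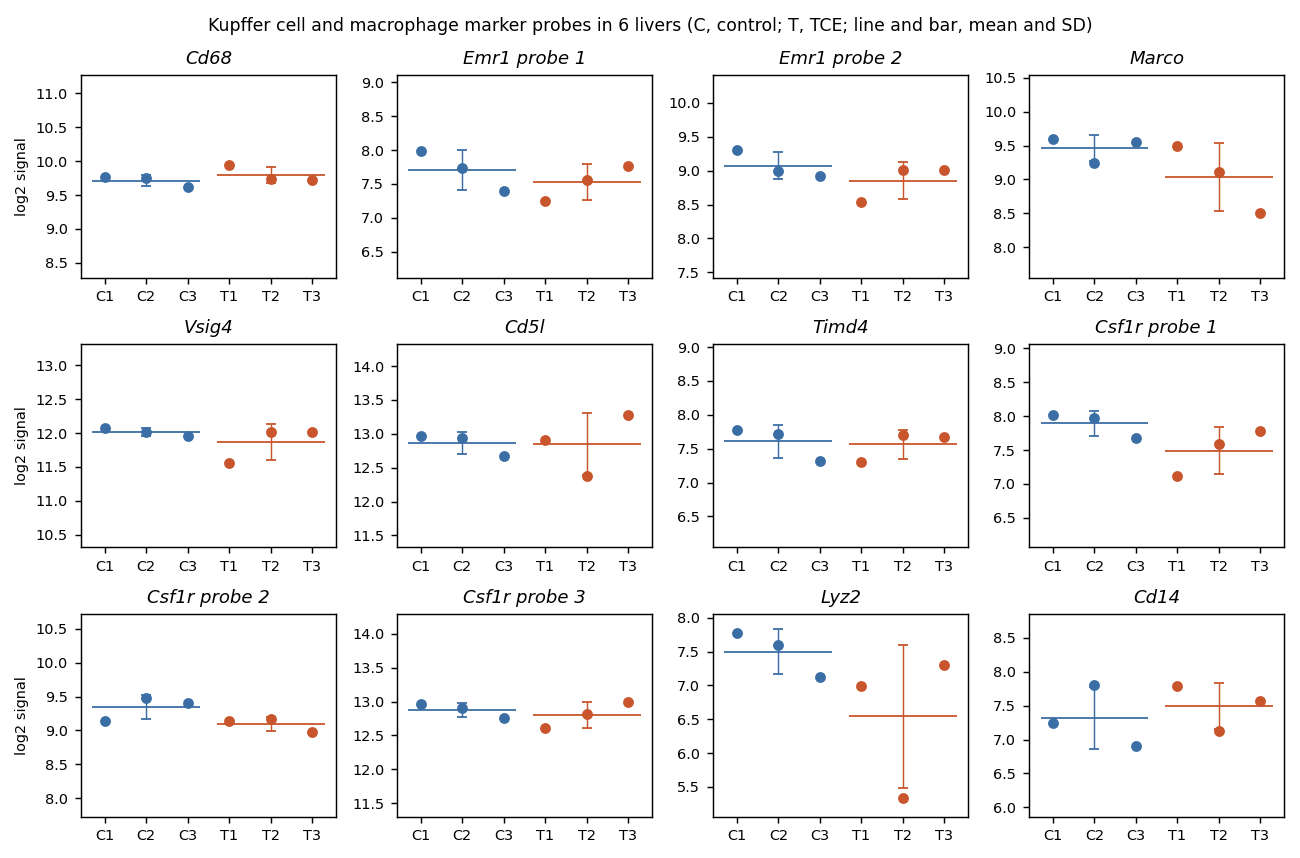
Log2 signal (vertical axis) of the 12 tested marker probes in control mice (C1 to C3, blue) and TCE mice (T1 to T3, orange), with the mean and SD of each group of 3. The groups overlap in every panel, and the low point of Lyz2 in TCE mouse 2 lies at 5.34.

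The general macrophage markers came first. Cd68 encodes a glycoprotein of the macrophage lysosome. Its log2 signal was 9.77, 9.75 and 9.62 in control mice 1, 2 and 3, and 9.94, 9.74 and 9.72 in TCE mice 1, 2 and 3. TCE mouse 1 was the highest of the 6 and the other values were interleaved. The change was 0.09 with a standard error of 0.12 (95% interval -0.20 to 0.37, limma adjusted p = 0.748), the narrowest interval of the member probes. The second Cd68 probe read 3.97, 4.48 and 4.37 in controls and 4.86, 4.13 and 4.36 in TCE mice and was above background only in TCE mouse 1, so no fold is given for it.

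Emr1 encodes F4/80, the surface protein by which mouse macrophages are commonly stained. The signal at its second probe was 9.30, 9.0 and 8.92 in control mice and 8.54, 9.01 and 9.01 in TCE mice. TCE mouse 1 lay below all the others, while the remaining TCE mice sat within the control range. The change was -0.22 ± 0.18 (standard error, 95% interval -0.66 to 0.22, limma adjusted p = 0.586). At its first probe the signal was 7.98, 7.73 and 7.39 in controls and 7.25, 7.56 and 7.77 in TCE mice, with TCE mouse 1 lowest again, and the change was -0.17 (95% interval -0.67 to 0.32). Both Emr1 probes thus gave the same order for the extreme mice, with control mouse 1 highest and TCE mouse 1 lowest.

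Csf1r encodes the receptor for CSF1 and IL-34, the growth factors that keep Kupffer cells alive. Its 3 probes all had fitted changes below 0, though without normalization between arrays probes 2 and 3 lay above 0. Along the gene probe 2 comes first, probe 1 starts 10737 bases after it and probe 3 starts 12064 bases after it. Probe 3 read 12.97, 12.90 and 12.76 in control mice and 12.61, 12.82 and 12.99 in TCE mice. TCE mouse 1 was lowest and TCE mouse 3 highest, so the TCE mice spanned the controls, and the change was -0.07 ± 0.14 (standard error, 95% interval -0.40 to 0.27). Probe 1 read 8.02, 7.98 and 7.68 in controls and 7.11, 7.59 and 7.78 in TCE mice. Only TCE mouse 3 reached the control range there, and the change was -0.40 ± 0.21 (standard error, 95% interval -0.89 to 0.10, limma adjusted p = 0.374). Probe 2 read 9.14, 9.48 and 9.40 in controls and 9.14, 9.17 and 8.97 in TCE mice, with a change of -0.25 (95% interval -0.58 to 0.08) and TCE mouse 3 lowest. TCE mouse 3 was the highest mouse at probe 3 and the lowest at probe 2.

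Vsig4, Timd4 and Clec4f separate resident Kupffer cells from newly arrived monocytes. Vsig4 encodes CRIg, a complement receptor that captures opsonized bacteria from the blood. Its probe, on chromosome X from 93442598 to 93442657 (mm9), read 12.07, 12.02 and 11.96 in control mice and 11.56, 12.02 and 12.02 in TCE mice. The control mice spread over an SD of 0.06, 2 TCE mice fell inside that range, and TCE mouse 1 lay below it. The change was -0.15 ± 0.16 (standard error, 95% interval -0.53 to 0.24, limma adjusted p = 0.671), and it was 0.01 when TCE mouse 1 was left out. Timd4 encodes TIM-4, a phosphatidylserine receptor for apoptotic cells, and it read 7.78, 7.72 and 7.32 in controls and 7.31, 7.70 and 7.68 in TCE mice. TCE mouse 1 and control mouse 3 were nearly level at the bottom, and the change was -0.04 ± 0.18 (standard error, 95% interval -0.48 to 0.39). Clec4f, a C-type lectin of Kupffer cells that is no member and is named after its values were seen, read 12.25, 12.36 and 12.22 in controls and 11.98, 12.21 and 12.26 in TCE mice, a change of -0.12 with TCE mouse 1 lowest.

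The scavenger receptors behaved less alike. Marco encodes a class A scavenger receptor for bacteria and particles, and read 9.60, 9.24 and 9.56 in control mice and 9.50, 9.11 and 8.50 in TCE mice. TCE mouse 1 was within the control range, TCE mouse 2 just under it, and TCE mouse 3 well under it. The change was -0.43 ± 0.27 (standard error, 95% interval -1.08 to 0.21, limma adjusted p = 0.455). Without TCE mouse 3 the change was -0.16, and over the omissions of each mouse in turn it ranged from -0.66 to -0.16. Cd5l encodes a secreted scavenger-domain protein, AIM, that Kupffer cells release, and read 12.97, 12.94 and 12.67 in controls and 12.91, 12.37 and 13.28 in TCE mice. The highest and the lowest mouse were both TCE mice, the group means differed by 0.01 (change -0.01, 95% interval -0.59 to 0.58), and the SD was 0.46 in TCE mice against 0.17 in controls. Cd163, the haemoglobin-haptoglobin scavenger receptor, was above background on 0 of the 6 arrays. It read 4.30, 4.37 and 4.45 in controls and 3.51, 4.03 and 3.68 in TCE mice, and no fold is given because both groups were below background.

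Lyz2 encodes lysozyme M, an enzyme that cleaves bacterial cell walls, and is made by most myeloid cells. It had the fitted change farthest from 0 among the member probes. Its signal was 7.78, 7.59 and 7.13 in control mice and 6.99, 5.34 and 7.30 in TCE mice, with means of 7.50 ± 0.33 and 6.54 ± 1.06 (SD, n = 3 each). TCE mouse 2 stood far under all others, and TCE mouse 3 lay inside the control range. The change was -0.96 ± 0.51 (standard error, 95% interval -2.20 to 0.28, limma adjusted p = 0.393). Before normalization the processed intensity of the probe was 33.8 in TCE mouse 2 and 114.3 to 248.1 in the other mice. Leaving out TCE mouse 2 gave a change of -0.35, and leaving out each mouse in turn gave -1.34 to -0.35.

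Cd14 encodes the co-receptor that hands endotoxin to TLR4, and it is induced in activated macrophages and in stressed hepatocytes. The probe read 7.24, 7.81 and 6.91 in control mice and 7.79, 7.12 and 7.57 in TCE mice. The groups overlapped almost fully, with the highest and the lowest value both in controls. The change was 0.18 ± 0.28 (standard error, 95% interval -0.49 to 0.84, limma adjusted p = 0.783). Exact permutation tests of the single probes over the 6 mice (two-sided), in which 3 against 3 mice cannot give a p below 0.1, gave p from 0.2 to 1 for the 12 tested probes.

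**Figure D2:**
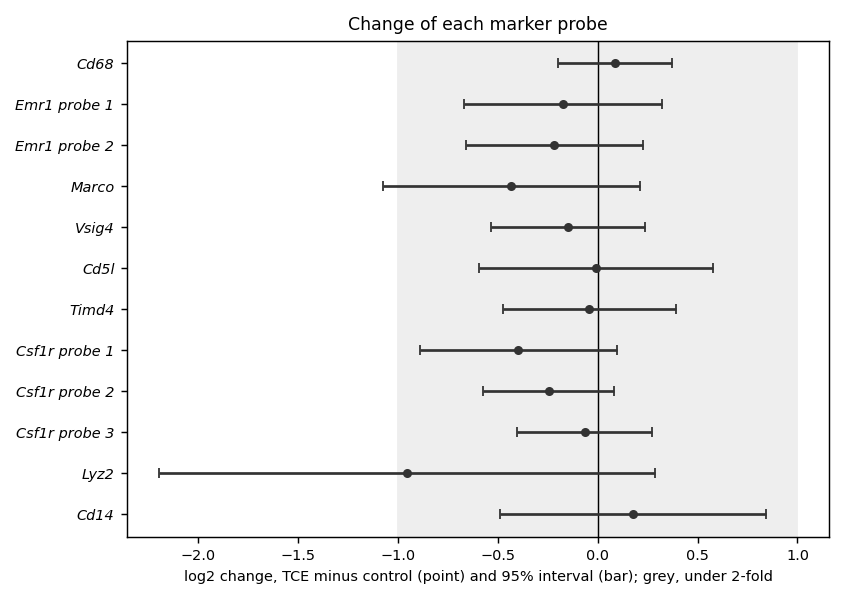
Fitted log2 change, TCE minus control (horizontal axis), of each tested marker probe, with the 95% interval as a bar; grey marks changes under 2-fold. All 12 intervals include 0, and those of Marco and Lyz2 leave the grey band, on the lower side.

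Mice within each group were not alike in these markers. Over the 12 probes, the median deviation from the control mean was -0.28 in TCE mouse 1, -0.16 in TCE mouse 2 and 0.01 in TCE mouse 3, while control mice 1, 2 and 3 lay at 0.12, 0.06 and -0.17. TCE mouse 1 held the lowest of the 6 values in 6 of the 12 probes, against 16.9% of all detected probes, and control mouse 1 held the highest in 7, against 12.5% of all detected probes. Several of these probes belong to the same gene. Counted by gene, TCE mouse 1 was lowest in 4 of 9 and control mouse 1 highest in 5 of 9. Over all detected genes the shares were 17.5% and 12.8%. Without TCE mouse 1 the median change of the 9 detected members was 0.01 and 4 of the 9 were lower. Control mouse 1 was hybridized on slide 1 alone and the remaining 5 arrays on slide 2, and the part of the slide in these values was not tested beyond the fit with slide as a block.

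TCE mouse 1 was also the lowest mouse in many other genes of sinusoidal cells. Of 20 other Kupffer cell genes, all 20 were detected, 14 were lower and 6 higher, 0 were past the threshold, and the median change was -0.12, which turned to 0.12 with 5 of 20 lower without normalization between arrays. By gene 1.73% of all detected genes were past the threshold, 19.1% had an unadjusted p under 0.05, and 27.9% had groups that did not overlap. Among the 20, Hmox1 and Slc40a1 had an unadjusted p under 0.05, and the groups of Hmox1 and Axl did not overlap. TCE mouse 1 was lowest in 9 of the 20, against 17.5% of all detected genes, and without that mouse the median was -0.04. Sinusoidal endothelial markers were listed for the cells next to Kupffer cells, and whether macrophages add to their signal was not tested. All 10 were detected and all 10 had fitted changes below 0, with a median of -0.28 (-0.02, and 5 of 10 lower, without normalization between arrays), and 0 were past the threshold by limma, also 0 at an unadjusted p under 0.05. TCE mouse 1 was lowest in 9 of these 10 with a median deviation of -0.91, against -0.14 and -0.05 in TCE mice 2 and 3. The summed signal of the endothelial list was 14.65 to 14.69 in controls and 13.80 to 14.74 in TCE mice on the log2 scale. Stab2, a scavenger receptor of that endothelium chosen after its values were seen, read 12.61, 12.41 and 12.31 in controls and 11.33, 12.26 and 12.13 in TCE mice. Without TCE mouse 1 the endothelial median was -0.05, with 5 of 10 lower. Dnase1l3, a secreted nuclease and the endothelial gene with the lowest p, had a change of -0.42 (limma adjusted p = 0.308). Whether the low macrophage markers and the low endothelial markers of this mouse share a source was not tested.

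**Figure D3:**
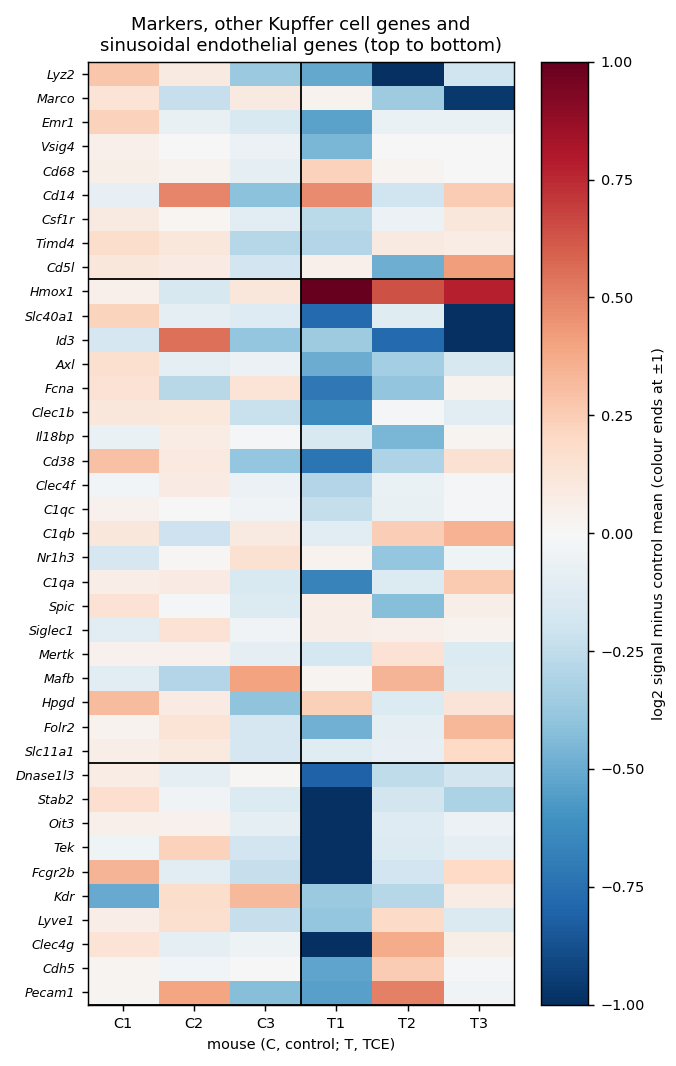
Log2 signal minus the control mean (colour, ending at ±1) for the detected markers, the other Kupffer cell genes and the sinusoidal endothelial genes (rows, top to bottom) in the 6 mice (columns). TCE mouse 1 is blue over most rows of the bottom block, where it is the lowest mouse in 9 of 10 genes, and in 9 of the 20 rows of the middle block.

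The Lyz2 profile was shared by genes that mark no macrophage. Likeness was measured as the root mean square difference of log2 signals, each centred on its mean over the 6 mice, across 12480 genes that were above background on all arrays. The 5 nearest genes were Beta-s (0.13) and Hbb-b2 (0.19), which are beta-globin genes of red cells, Dhrs1 (0.22), a short-chain dehydrogenase, Cyp2j13 (0.22), a cytochrome P450, and Krt16 (0.22), a keratin. Beta-s read 12.57, 12.32 and 12.12 in control mice and 11.78, 10.45 and 12.20 in TCE mice. Like Lyz2 it was low in TCE mouse 2 and within the control range in TCE mouse 3. Of the red cell markers 5 of 6 were detected, and TCE mouse 2 was lowest in 5 of the 5, with a median deviation of -1.66. The median change of that list was -0.66, and -0.06 without TCE mouse 2. No other member was low to that extent in TCE mouse 2, and Cd5l, at rank 538 of the compared genes, was the member nearest to Lyz2. Whether the red cell genes bear on Lyz2 was not tested.

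**Figure D4:**
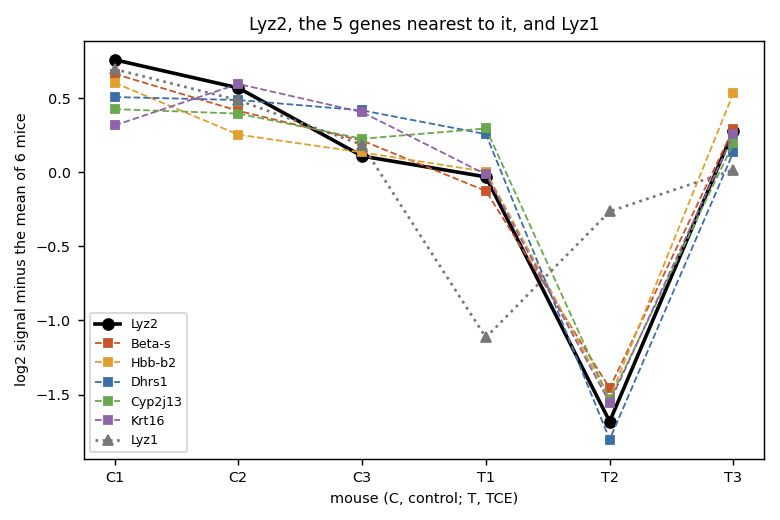
Log2 signal minus the mean over 6 mice (vertical axis) of Lyz2, the 5 genes nearest to it and Lyz1, in control mice (C1 to C3) and TCE mice (T1 to T3); lines join the values of a gene. Lyz2 and its nearest genes fall in TCE mouse 2, while Lyz1 is lowest in TCE mouse 1.

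Lyz1, the neighbouring lysozyme gene, did not follow Lyz2. It ranked 2163 in likeness, with a difference of 0.74, and read 10.12, 9.91 and 9.61 in control mice and 8.31, 9.16 and 9.44 in TCE mice. All TCE mice lay below all control mice, with TCE mouse 1 lowest. The change was -0.91 ± 0.31 (standard error), which did not pass the threshold (limma adjusted p = 0.206). Lyz1 was in the list of monocyte and recruited macrophage genes, where 13 of 18 were detected, 7 higher and 6 lower. Ly6c2 had no probe under its symbol. Of the 13, 0 were past the threshold, 3 had an unadjusted p under 0.05 and 3 had groups that did not overlap. Over all detected genes these shares were 1.73%, 19.1% and 27.9%. The list median was 0.02, or 0.23 and 3 of 13 lower without normalization between arrays. Cx3cr1, lower, passed the detection filter only through the controls, and Ms4a7, higher, only through the TCE group. Ccr2, the chemokine receptor that brings monocytes from the blood, was not detected. Plac8, a gene of circulating monocytes, had the lowest p of that list, with a change of 0.39 (limma adjusted p = 0.183).

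The receptors around Csf1r held 1 of the 2 companion genes past the threshold. These 2 were among 122 detected genes of the 16 lists, and 1.73% of all detected genes passed. Csf2rb, the shared beta chain of the receptors for GM-CSF, IL-3 and IL-5, read 9.17, 9.11 and 9.27 in control mice and 10.14, 10.24 and 10.77 in TCE mice. Every TCE mouse was above every control mouse, and the change was 1.20 ± 0.19 (standard error, limma adjusted p = 0.0365). A second Csf2rb probe gave 1.11 (limma adjusted p = 0.108), and the close paralog Csf2rb2 may share the signal. The call was lost when any mouse but TCE mouse 3 was left out, with limma adjusted p from 0.0450 to 0.150 over the omissions. It was also lost with slide as a block, which leaves control mouse 1 uncompared (limma adjusted p = 0.114), with replicate number as a block (0.112) and with all probes tested (0.133). With Csf2rb included, 8 of 11 genes of that list were detected, 4 higher and 4 lower, with a median of 0.01, or 0.29 and 1 of 8 lower without normalization between arrays. Spi1, which encodes PU.1, had no probe under that symbol, so its transcript was not read. The ligand genes Csf1 and Il34 had changes of -0.34 and 0.39 and did not pass.

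Cd36 was the other. It encodes a scavenger receptor for oxidized lipoproteins and fatty acids that macrophages, endothelium and hepatocytes all make, and it read 7.23, 7.16 and 6.58 in controls and 9.72, 10.01 and 10.13 in TCE mice. The change was 2.96 ± 0.21 (standard error, limma adjusted p = 0.00301), and it ranged from 2.76 to 3.10, past the threshold each time, when each mouse was left out. The call was lost with replicate number as a block, where the change was the same (limma adjusted p = 0.0594), and by the methods' t-test after adjustment. In the list of scavenger and phagocytic receptors and lysosomal genes all 18 were detected, 8 higher and 10 lower, with a median of -0.05, or 0.16 and 4 of 18 lower without normalization between arrays. Colec12, among the 10 lower, passed the detection filter only through the controls. Besides Cd36, the lysosomal genes Ctsd, Ctsb and Lamp2 had an unadjusted p under 0.05, with changes of 0.57, 0.28 and -0.30. That made 4 of the 18, against 19.1% of all detected genes. Marco and Cd5l, the scavenger members detected, were not past the threshold in the same fit.

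In the list of CD14 and TLR4 signalling, 16 of 22 genes were detected, 11 higher and 5 lower, with a median change of 0.29. Without normalization between arrays the median was 0.55 and 3 of 16 were lower, against a median of 0.27 over all detected genes. Of the 16, 0 were past the threshold, 6 had an unadjusted p under 0.05 (37.5%, against 19.1% of all detected genes) and 8 had groups that did not overlap (27.9% of all detected genes). Il1b is in both counts, though it passed the detection filter only through the controls. With probes above background on all 6 arrays, 15 genes of the list remained, 4 of them lower. Tlr4 itself, Tnf and Il6 were not detected. Lbp, the plasma protein that delivers endotoxin to CD14 and is made by hepatocytes, read 12.15, 12.27 and 11.84 in controls and 13.02, 12.94 and 12.43 in TCE mice, a change of 0.71 (limma adjusted p = 0.148). Myd88, the adaptor of most Toll-like receptors, had a change of 0.44 (limma adjusted p = 0.191). Tnfaip3 had the largest change of the list, at 1.79 (limma adjusted p = 0.301), and read 6.89, 6.56 and 6.01 in controls. In TCE mice Tnfaip3 read 10.13, 6.99 and 7.71. Il1b, among the 5 lower genes, is a cytokine of activated macrophages, named like Myd88 and Tnfaip3 after its values were seen. It read 6.92, 6.63 and 5.41 in controls and 4.51, 4.69 and 5.40 in TCE mice, a change of -1.45 (limma adjusted p = 0.162). Il1b was well above background on all 3 control arrays and on 1 TCE array, so it passed the detection filter only through the controls and the size of its change is uncertain. Control mouse 3 and TCE mouse 3 were nearly level there, and none of these genes passed the threshold.

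**Figure D5:**
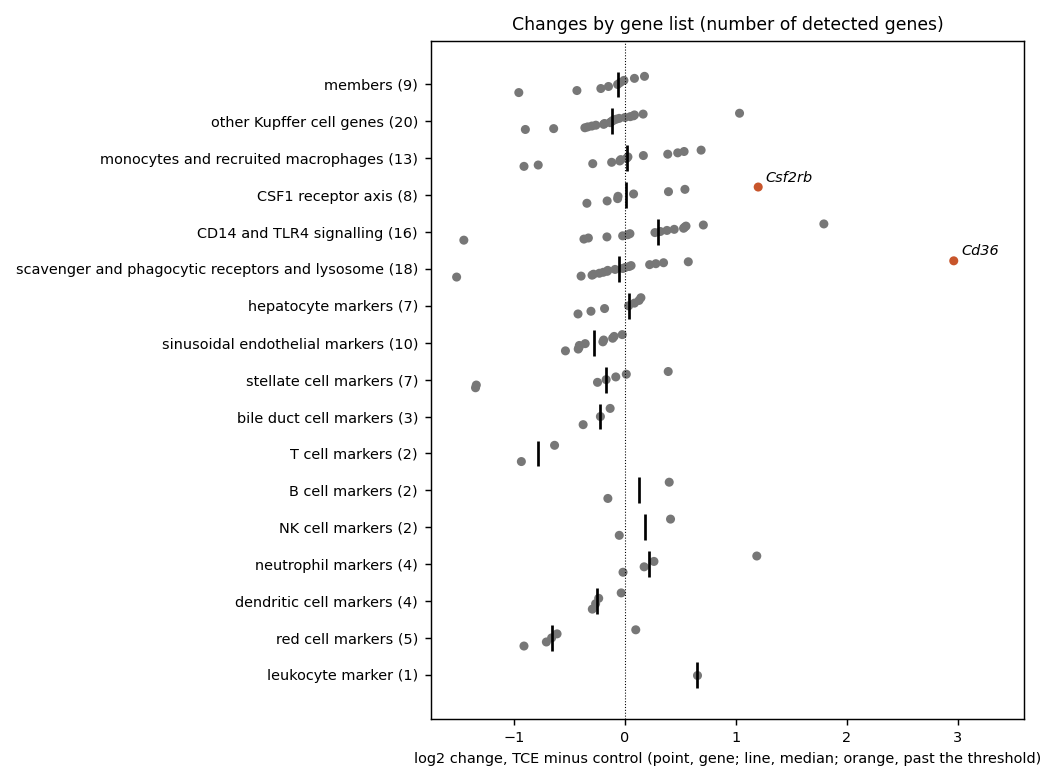
Fitted log2 change of each detected gene (points; horizontal axis, TCE minus control) by gene list, with the median of each list as a black line and genes past the threshold in orange. The 9 detected members lie between -0.96 and 0.18, and the only orange points are Csf2rb and Cd36.

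Markers of other cells in the liver were read from the same arrays. Over the 11 lists of other cell types, 47 of 73 genes were detected. Of the 47, 0 were past the threshold, against 1.73% of all detected genes. An unadjusted p under 0.05 held for 5 of the 47, against 19.1% of all detected genes. These 5 were Apoa1, Lrat, Cd3e, S100a8 and Alas2. Hepatocyte markers were detected for 7 of 8 genes, the eighth having no probe under its symbol, and their summed signal was 20.32 to 20.36 in controls and 20.22 to 20.42 in TCE mice on the log2 scale. S100a8, a calcium-binding protein of neutrophils and inflammatory monocytes, read 5.57, 6.24 and 5.96 in controls and 6.75, 7.03 and 7.55 in TCE mice. Its change was 1.19 and did not pass (limma adjusted p = 0.0886), while its partner S100a9, named after its values were seen, had a change of 0.26. With normexp background correction the S100a8 change was 0.70. Of 8 neutrophil markers 4 were detected, 3 higher and 1 lower, or 0 of 4 lower without normalization between arrays. The others detected, Camp and Ly6g, had changes of 0.17 and -0.02. Apoa1, a hepatocyte apolipoprotein, had a change of -0.31 (limma adjusted p = 0.215). Lrat, the retinol-esterifying enzyme of stellate cells, had a change of -1.35 (limma adjusted p = 0.0676), and it passed with array weights (limma adjusted p = 0.0407) and with the trended, robust variance model (0.0492). Of 8 stellate cell markers 7 were detected, 5 lower and 2 higher, with a median of -0.17. Without normalization between arrays that median was 0.04, with 2 of 7 lower. Reln, among the 5 lower, was above background on 3 control and 2 TCE arrays and passed the filter only through the controls. With probes above background on all 6 arrays, 4 of 6 stellate cell genes were lower, with a median of -0.13. Ptprc, which encodes the pan-leukocyte protein CD45, had a change of 0.65 (limma adjusted p = 0.381), and it was well above background on 2 of the 3 control arrays and on all 3 TCE arrays, so that it passed the detection filter only through the TCE group. Alas2, the first enzyme of haem synthesis in red cell precursors, was lower by less than 2-fold, with a change of -0.91 (limma adjusted p = 0.0215). T cell, B cell, NK cell, dendritic cell and bile duct cell markers were detected for 2 of 7, 2 of 5, 2 of 6, 4 of 8 and 3 of 6 genes. Their lowest p genes were Cd3e, Cd79a, Prf1, H2-Ab1 and Spp1, with changes of -0.63, 0.40, 0.41, -0.29 and -0.22. In the same order of lists 2, 1, 1, 4 and 3 of the detected genes were lower. Without normalization between arrays 2, 0, 0, 3 and 1 were lower. Clec9a and Zbtb46, among the 4 lower dendritic cell genes, were well above background on 3 control arrays and 2 TCE arrays. They thus passed the detection filter only through the controls. With probes above background on all 6 arrays, 2 dendritic cell genes remained. The other detected B cell and NK cell genes, Cr2 and Gzma, had changes of -0.15 and -0.05. Cd4, the other detected T cell gene, had a control mean of 14.01, and the dendritic cell gene Siglech had 14.28. Both were brighter than Csf1r probe 3, at 12.87, and Cd3e was at 9.59. Cd3d, Cd3g, Cd8a and Cd2 were not detected, and Trac had no probe under its symbol. Whether the Cd4, Cd3e and Siglech probes read those cells here was not tested. Within Kupffer cell genes the one with the lowest p was Hmox1, haem oxygenase, which degrades haem in macrophages and is also induced in stressed hepatocytes. It read 10.05, 9.84 and 10.11 in controls and 11.68, 10.64 and 10.78 in TCE mice, a change of 1.03 (limma adjusted p = 0.139).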

How the data were processed

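Liver RNA of 3 control and 3 TCE mice was measured on Agilent mouse 8x60K 1-colour arrays. The authors extracted the spots with Agilent Feature Extraction 10.7.1.1 (per the labels), and the deposited scanner output gives the background-subtracted processed intensity of each spot. The deposited table of the whole series holds group means on the log2 scale after quantile normalization by the authors. Its 6 per-sample flag columns were not used. Outlier spots (123 to 189 per array) were set to missing, spots of a probe averaged on the log2 scale without pseudocount, and the arrays quantile normalized. Between 23537 and 24965 probes per array were well above background, and 0 spots were saturated. The number of arrays limits the precision.

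A probe counted as detected when every array of the control group, or every array of the TCE group, had it well above background, which held for 22731. These were compared by limma 3.58.1 under R 4.3.3 with lmFit, eBayes and two-sided p-values, Benjamini-Hochberg adjusted over all of them. The threshold was an adjusted p of 0.05 and a 2-fold change. A gene with several detected probes was represented by the brightest on average. Named were all members, genes of each list past the threshold (where none passed, the gene with the lowest p), and the 5 genes nearest to the member with the largest absolute change. Other genes were named after their values were seen. The members and the lists were chosen with earlier results of these data known. The fit was tested on simulated data. Positions of probes come from the array's own annotation (mm9), and RefSeq promoters are on GRCm38.p6.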

Additional observations from a re-analysis of the deposited data

How the results depend on the processing

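The count of member probes past the threshold was 0 under every alternative run. At an unadjusted p under 0.05 by limma it was 0 to 2 of those tested, 2 without TCE mouse 3. The median member change was 0.17 without normalization between arrays, where all detected genes had a median of 0.27, and -0.18 to 0.01 when each mouse was left out. Of 228 member values under alternatives, 22 had the other sign. Without normalization these were the Emr1 probes at 0.0386 and 0.0596, Vsig4 at 0.11, Cd5l at 0.26, Timd4 at 0.17 and Csf1r probes at 0.0265 and 0.199, and the bile duct marker Spp1 was at 0.00564. Cd5l was at 0.0420 under scaling to the 75th percentile, 0.0403 under normexp, 0.0472 with slide as a block and 0.0235 with array weights. Cd68 was at -0.0104 under normexp and Timd4 at 0.0454 with slide as a block. Leaving out each mouse in turn gave -0.22 to 0.24 for Cd5l, -0.18 to 0.0832 for Timd4, -0.0287 to 0.42 for Cd14, -0.23 to 0.00637 for Vsig4 and -0.16 to 0.0323 for Csf1r probe 3. The cause was not tested.

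All probes past the threshold numbered 321 (234 higher, 87 lower). They numbered 96 with all probes that are not controls tested, 177 with slide as a block, 594 by the methods' t-test unadjusted and 35 after adjustment, and 114 to 245 when each mouse was left out. Without normalization 268 were higher and 38 lower. Of the companion genes, 2 passed, but 1 with all probes tested and with slide as a block, 5 by the methods' t-test and 0 after its adjustment, 3 with array weights and with the trended, robust variance model, where Lrat passed too, 3 with the mean of a gene's probes and 3 with no limit on the fold, and 1 to 2 when each mouse was left out, 2 only without TCE mouse 3. Replicate numbers did not pair the mice, with correlations of deviations of 0.09, 0.01 and -0.09 for equal numbers, and with replicate number as a block 63 probes and 0 companion genes passed. With 3 mice per group the intervals of Marco and Lyz2 still include changes of over 2-fold.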
